A study of Mus musculus with 20 samples.

Results

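The 10 genes described here make, cut or bind hyaluronan, and they are the hyaluronan synthases Has1, Has2 and Has3, the hyaluronidases Hyal1 and Hyal2, the receptor Cd44, and the matrix genes Vcan, Tnfaip6, Itih2 and Itih5. They were chosen by name from the 51826 genes of the count table, and all 10 passed the filter on low counts (at least 5 counts in at least 5 libraries). The cultures were primary renal myofibroblasts of C57BL/6J mice, grown out of minced kidney pieces and sequenced at passage 2 as poly-A RNA. The 4 groups of 5 libraries were untreated WT, WT treated with TGFβ1, untreated WWP2-/- and WWP2-/- treated with TGFβ1, where the WWP2-/- mice carry a null line of the E3 ubiquitin ligase gene Wwp2 and the WT mice were their littermates. The labels give neither the dose nor the duration of TGFβ1, which the methods of the study state for its cultures. The methods describe data points in general as independent experiments on single mice or their cells, but the labels do not tie these libraries to animals, so the p-values measure the spread between these libraries.

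Hyaluronan is a long unbranched sugar chain that is made at the cell membrane by the synthases and pushed out into the matrix. Hyaluronidases cut it, CD44 holds it at the cell surface, and versican and the heavy chains of inter-alpha-trypsin inhibitor, which the TNFAIP6 protein transfers onto the chain, bind it into a loose matrix. In kidney it is abundant in the medulla and gathers in the cortical interstitium during injury and fibrosis.

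With TGFβ1, the receptor gene Cd44 and the versican gene Vcan were higher in WWP2-/- than in WT cells, by 2.76-fold and 6.12-fold, and no library of one genotype overlapped the other. The Vcan call was lost with the X-inactivation transcript Xist as a covariate. Both calls were lost without the 5 libraries that held both Xist and Y-linked transcripts, although neither log2 fold change was smaller in that fit. Over all genes that fit called 2, against 1238 with all libraries. Without TGFβ1, the heavy-chain gene Itih2 was the member called, 8.50-fold higher in WWP2-/- cells, and this call held in 3 of 10 fits that left out 1 library. DESeq2's Wald test called Itih2 and Cd44 there. No synthase or hyaluronidase passed the test for genotype with edgeR's quasi-likelihood test, whereas DESeq2's Wald test called Hyal2 with TGFβ1 (adjusted p = 0.0389). No member passed edgeR's test for TGFβ1 against untreated, whereas the Wald test called Itih2 in WWP2-/- cells (adjusted p = 0.0357).

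Totals were between 47520759 and 73063697 counts per library, and levels are given as CPM (counts per 1000000 counts of the library) scaled by edgeR's TMM factors. A count of 0 would allow at most 0.0613 CPM in any library, as counting error only, and no member was at 0 in any library. Wwp2 was between 50.0 and 59.8 CPM in the 10 WT libraries and between 17.03 and 22.7 CPM in the 10 WWP2-/- libraries. Libraries differed in Xist, the transcript of the inactive X chromosome: it was above 1 CPM in 4 of 5 WT, 4 of 5 TGFβ1-treated WT, 2 of 5 WWP2-/- and 1 of 5 TGFβ1-treated WWP2-/- libraries, and 5 of these 11 libraries also held Y-linked transcripts. Genotype is therefore partly confounded with Xist, and member values are given within libraries with and without it. The myofibroblast marker Acta2 was at 38.9 CPM in WWP2-/- replicate 3 and 50.4 CPM in TGFβ1-treated WWP2-/- replicate 1, and at 1016 CPM or more in the others. The sum of 5 myofibroblast markers was 352 and 515 CPM in these 2 libraries, and 1583 CPM or more in the others. Postn, 1 of the 5, went the other way and was highest of its group in these 2 libraries, at 304 and 455 CPM. The fibroblast marker Pdgfra was at most 1.87 CPM in the 9 libraries without Xist. The summed fibroblast markers, Pdgfra among them, did not follow it in WWP2-/- libraries. In WT they were lowest of their group without Xist, at 4648 CPM untreated and 10670 CPM with TGFβ1. In WWP2-/- they were lowest in untreated replicate 3 (4288 CPM) and treated replicate 1 (5265 CPM), which have Xist. The markers of this sum went both ways there. Col1a1, Col3a1 and Vim were lowest of their group in these 2 libraries. Pdgfra, Dcn and Thy1 were highest of their group in them, with Dcn at 1147 and 1452 CPM. The sums were highest without Xist, in untreated replicate 5 (10330 CPM) and treated replicate 3 (13210 CPM). Untreated replicate 2, also without Xist, was at 5263 CPM. Summed levels of 10 macrophage markers ran from 63.1 to 442 CPM in TGFβ1-treated WT and from 71.6 to 3541 CPM in TGFβ1-treated WWP2-/- libraries, and the 10 tubular markers from 42.2 to 212 and from 12.3 to 567 CPM. Untreated, the macrophage sums reached higher in WT, from 154 to 4002 CPM, than in WWP2-/- libraries, from 75.7 to 1769 CPM. The untreated tubular sums ran from 36.9 to 431 CPM in WT and from 14.0 to 786 CPM in WWP2-/- libraries. In bulk libraries, fewer cells of a type and less RNA per cell cannot be told apart.

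The promoters of the 3 members that passed the genotype test are shown because their levels carry the results below. Each line is the 250 bases before the RefSeq start site on GRCm38.p6, read 5′ to 3′ on the gene's strand, with matches on either strand to the E-box CANNTG, the AP-1 element TGANTCA, the GC box GGGCGG, the TATA box TATAAA, the palindromic SMAD box GTCTAGAC and the SMAD element CAGAC in capitals. All 3 genes lie on the minus strand, with windows at chr2:102901666-102901915 for Cd44, chr13:89742513-89742762 for Vcan and chr2:10130684-10130933 for Itih2, and no exon of the GENCODE M21 annotation lies in these windows. The Itih2 window lies within the gene as annotated there (chr2:10094593-10131396), whereas the Cd44 and Vcan windows lie outside their genes.
Cd44: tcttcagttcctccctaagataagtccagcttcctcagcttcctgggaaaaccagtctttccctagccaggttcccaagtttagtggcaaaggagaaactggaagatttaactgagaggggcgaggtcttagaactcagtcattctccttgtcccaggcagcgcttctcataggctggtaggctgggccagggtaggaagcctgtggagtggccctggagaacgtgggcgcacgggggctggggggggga
Vcan: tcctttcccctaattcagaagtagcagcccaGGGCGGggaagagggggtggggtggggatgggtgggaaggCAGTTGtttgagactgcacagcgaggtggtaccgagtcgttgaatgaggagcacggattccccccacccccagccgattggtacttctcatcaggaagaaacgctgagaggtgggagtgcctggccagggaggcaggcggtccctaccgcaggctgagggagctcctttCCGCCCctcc
Itih2: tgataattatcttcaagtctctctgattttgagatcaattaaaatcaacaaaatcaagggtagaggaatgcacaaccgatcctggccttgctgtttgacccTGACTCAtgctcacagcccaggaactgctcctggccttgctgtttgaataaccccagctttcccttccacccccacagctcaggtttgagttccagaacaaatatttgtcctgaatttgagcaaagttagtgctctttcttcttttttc
The Cd44 window held none of these letters. The Vcan window held 2 GC boxes, starting 219 and 10 bases before the start site, and 1 E-box, starting 179 bases before it. The Itih2 window held 1 AP-1 element, starting 149 bases before the start site. Among the 32851 promoter windows of this length, 66.2% held an E-box, 32.7% a GC box, 6.7% an AP-1 element, 12.4% a TATA box, 0.2% the SMAD box and 42.2% the CAGAC element, and a match is a description of the letters.

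Levels between genes were compared per length, as CPM per kilobase of exon (RPKM). Cd44 had the highest mean in every group, from 15.5 RPKM in TGFβ1-treated WT to 42.9 RPKM in TGFβ1-treated WWP2-/- cells. Over all 20 libraries the mean RPKM was 29.5 for Cd44, 12.3 for Hyal2, 10.5 for Vcan, 3.90 for Has2, 3.77 for Hyal1 and 2.90 for Itih2. The other 4 were below 1 RPKM, at 0.341 for Has3, 0.166 for Tnfaip6, 0.109 for Has1 and 0.0854 for Itih5. Neighbours in this order often overlapped: in untreated WWP2-/- cells the ranges of Hyal2, Vcan, Itih2, Hyal1 and Has2 each overlapped the next, whereas Cd44 stood above Hyal2 and Has2 above Has3 with no overlap. Vcan held rank 3 in WT and WWP2-/- cells, rank 5 in TGFβ1-treated WT cells and rank 2 in TGFβ1-treated WWP2-/- cells. The members also differed in how far they varied. The highest library was 1.55 times the lowest for Hyal2, between 4.59 and 7.74 times for Hyal1, Cd44, Has2, Tnfaip6, Has1 and Has3, and 26.7, 27.3 and 35.1 times for Itih2, Vcan and Itih5.

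**Figure D1:**
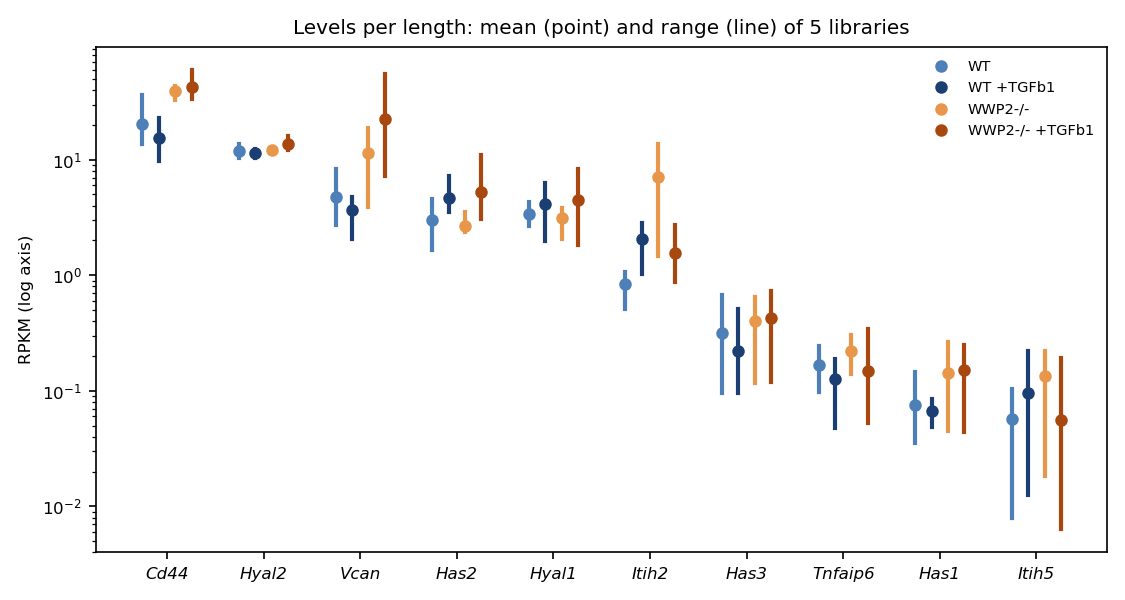
Level of each member in RPKM (log axis) with the mean (point) and range (line) of 5 libraries per group. Cd44 is highest in all 4 groups, from 15.5 to 42.9 RPKM, and Has3, Tnfaip6, Has1 and Itih5 are below 1 RPKM.

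Has2, the synthase that makes long chains and is the main one in fibroblasts, held a median of 90.3% of the summed RPKM of the 3 synthases (range 70.0% to 95.8%). It was at 11.99, 9.61, 19.4, 7.02 and 16.2 CPM in WT replicates 1 to 5, and at 21.4, 14.8, 30.5, 14.9 and 17.2 CPM with TGFβ1. In WWP2-/- replicates 1 to 5 it was at 10.04, 11.04, 14.96, 10.12 and 10.04 CPM, and at 17.1, 18.9, 46.8, 15.6 and 12.9 CPM with TGFβ1. The genotypes overlapped in both conditions, whereas 4 of the 5 treated WWP2-/- libraries lay above every untreated one. The difference between treated and untreated cells was 0.99 ± 0.33 (log2 fold change ± SE) in WWP2-/- and 0.62 ± 0.33 in WT cells, with adjusted p of 0.859 and 0.796 in edgeR's quasi-likelihood test. The unadjusted p in WWP2-/- cells was 0.00831, and without TGFβ1-treated WWP2-/- replicate 3 the log2 fold change was 0.53. Their difference between genotypes, as the interaction, was 0.36 with a 95% interval from -0.62 to 1.34. Between genotypes Has2 differed by 0.17 with TGFβ1 (interval -0.52 to 0.87) and by -0.19 without it (interval -0.89 to 0.50).

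Has1 and Has3, the other synthases, were low. Has1 ranged from 0.161 to 0.654 CPM in WT, 0.220 to 0.383 CPM in TGFβ1-treated WT, 0.202 to 1.19 CPM in WWP2-/- and 0.198 to 1.13 CPM in TGFβ1-treated WWP2-/- cells. With TGFβ1, 3 of 5 WWP2-/- libraries lay above every WT library, and the log2 fold change of 1.18 ± 0.53 did not pass (adjusted p = 0.174). It rests on 10 to 92 counts per library.

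Has3 ranged from 0.606 to 4.69 CPM over the 20 libraries, and the groups overlapped in every comparison. In libraries without Xist it was between 1.96 and 4.69 CPM, and in those with Xist between 0.606 and 2.45 CPM. Has3 shares 352 exon bases with Chtf8 on the other strand, a gene with 145293 counts against 2658 for Has3, and the strand setting of the counting was not given in the sources used here. Across the 20 libraries its log2 CPM followed the summed tubular markers (r = 0.88) and macrophage markers (r = 0.84), and the part of these cell types in the Has3 values was not tested. Its log2 fold change between genotypes was 0.94 with TGFβ1 (interval -0.26 to 2.14), and with Xist as a covariate it was -0.07.

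Hyal2, a hyaluronidase anchored at the cell surface, was the steadiest member. It was between 34.4 and 44.8 CPM in WT, 34.3 and 40.4 CPM in TGFβ1-treated WT, 37.4 and 41.9 CPM in WWP2-/- and 39.7 and 53.2 CPM in TGFβ1-treated WWP2-/- cells. With TGFβ1, 4 of 5 WWP2-/- libraries lay above every WT library. The log2 fold change was 0.26 ± 0.09 with an adjusted p of 0.0983, and DESeq2's Wald test gave an adjusted p of 0.0389. Without TGFβ1 it was 0.05, with an interval from -0.15 to 0.24.

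Hyal1, the lysosomal hyaluronidase, was between 6.87 and 31.6 CPM, and TGFβ1-treated WWP2-/- cells held both its lowest and its highest library. The genotypes differed by 0.12 (interval -0.58 to 0.82) with TGFβ1 and by -0.13 (interval -0.83 to 0.57) without it. Hyal1 shares 1920 exon bases with Naa80 and 159 with Hyal3 on the same strand, so its counts depend on how shared reads were assigned. Of the summed RPKM of the 2 hyaluronidases, Hyal2 held a median of 77.4% (range 59.0% to 88.1%).

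Cd44 encodes the main cell-surface receptor for hyaluronan. With TGFβ1 it was at 123, 92.2, 156, 66.1 and 88.5 CPM in WT replicates 1 to 5 and at 303, 280, 405, 236 and 229 CPM in WWP2-/- replicates 1 to 5. Every WWP2-/- library was above every WT library, and Cd44 was 2.76-fold higher (log2 fold change 1.46 ± 0.26, adjusted p = 0.00783). Summed levels of 8 fibroblast markers went the other way, with lower medians in WWP2-/- than in WT libraries. They ran from 10670 to 33920 CPM in TGFβ1-treated WT and from 5265 to 13210 CPM in TGFβ1-treated WWP2-/- libraries. Untreated, they ran from 4648 to 20880 CPM in WT and from 4288 to 10330 CPM in WWP2-/- libraries. Across the 20 libraries, which share the genotype difference, log2 CPM of Cd44 and these sums had r = -0.80 (-0.42 for Vcan), and their part in either result was not tested. Of the 10 members 2 were called with TGFβ1, both higher, against 6.07% of all 20407 genes tested. The median log2 fold change of the members was 0.25 against 0.05 over all genes. Both Cd44 and Vcan were on the same side of the threshold in each of the 10 fits that left out 1 library.

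Without TGFβ1, Cd44 was at 124, 126, 93.1, 247 and 97.9 CPM in WT replicates 1 to 5 and at 295, 222, 276, 281 and 251 CPM in WWP2-/- replicates 1 to 5. WT replicate 4 alone reached the WWP2-/- range, and the log2 fold change of 0.95 ± 0.26 did not pass (adjusted p = 0.0995). Without that replicate it was 1.23 and passed, with an adjusted p of 0.00409, and DESeq2's Wald test gave 0.0261 with all libraries. Between treated and untreated cells, the log2 fold change of Cd44 was -0.39 in WT (interval -0.93 to 0.15) and 0.13 in WWP2-/- cells (interval -0.40 to 0.67).

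In libraries with Xist, over both treatments, Cd44 was between 66.1 and 126 CPM in 8 WT and between 276 and 303 CPM in 3 WWP2-/- libraries, with no overlap. In libraries without Xist, it was at 247 CPM (untreated) and 156 CPM (treated) in 2 WT libraries and between 222 and 405 CPM in 7 WWP2-/- libraries, so that the genotypes overlapped. With Xist as a covariate, the log2 fold change with TGFβ1 was 1.27 (adjusted p = 0.0193). Leaving out the 5 libraries with both Xist and Y-linked transcripts gave 1.53 with an adjusted p of 0.0726, an alternative chosen after the data were seen. Of these 5, only treated WT replicate 1 belongs to the comparison with TGFβ1. Over all genes that fit called 2, against 1238 with all libraries.

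Vcan encodes versican, a large proteoglycan that binds hyaluronan. With TGFβ1 it was at 57.0, 43.6, 68.5, 29.5 and 65.1 CPM in WT replicates 1 to 5 and at 156, 428, 804, 122 and 103 CPM in WWP2-/- replicates 1 to 5. All WWP2-/- libraries lay above all WT libraries, and within WWP2-/- the highest was 7.77 times the lowest. Vcan was 6.12-fold higher, with a log2 fold change of 2.61 ± 0.56 and an adjusted p of 0.0138. Without replicate 3, the highest library, the log2 fold change was 1.93. With Xist as a covariate it was 2.08 with an adjusted p of 0.053, and without the 5 libraries with both kinds of transcript it was 2.64 with an adjusted p of 0.106. The latter fit called 2 genes over all genes, against 1238 with all libraries.

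Without TGFβ1, Vcan was at 49.9, 39.2, 86.0, 119 and 47.7 CPM in WT and at 173, 56.2, 106, 212 and 273 CPM in WWP2-/- replicates 1 to 5. WWP2-/- replicates 1, 4 and 5 lay above every WT library. The log2 fold change of 1.26 ± 0.53 did not pass (adjusted p = 0.283). In libraries with Xist Vcan was between 29.5 and 86.0 CPM in 8 WT and between 106 and 173 CPM in 3 WWP2-/- libraries, and in those without it at 68.5 and 119 CPM in 2 WT and between 56.2 and 804 CPM in 7 WWP2-/- libraries. Cd44 and Vcan varied together across the 20 libraries (r = 0.82 of log2 CPM), which include the genotype difference of both.

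**Figure D2:**
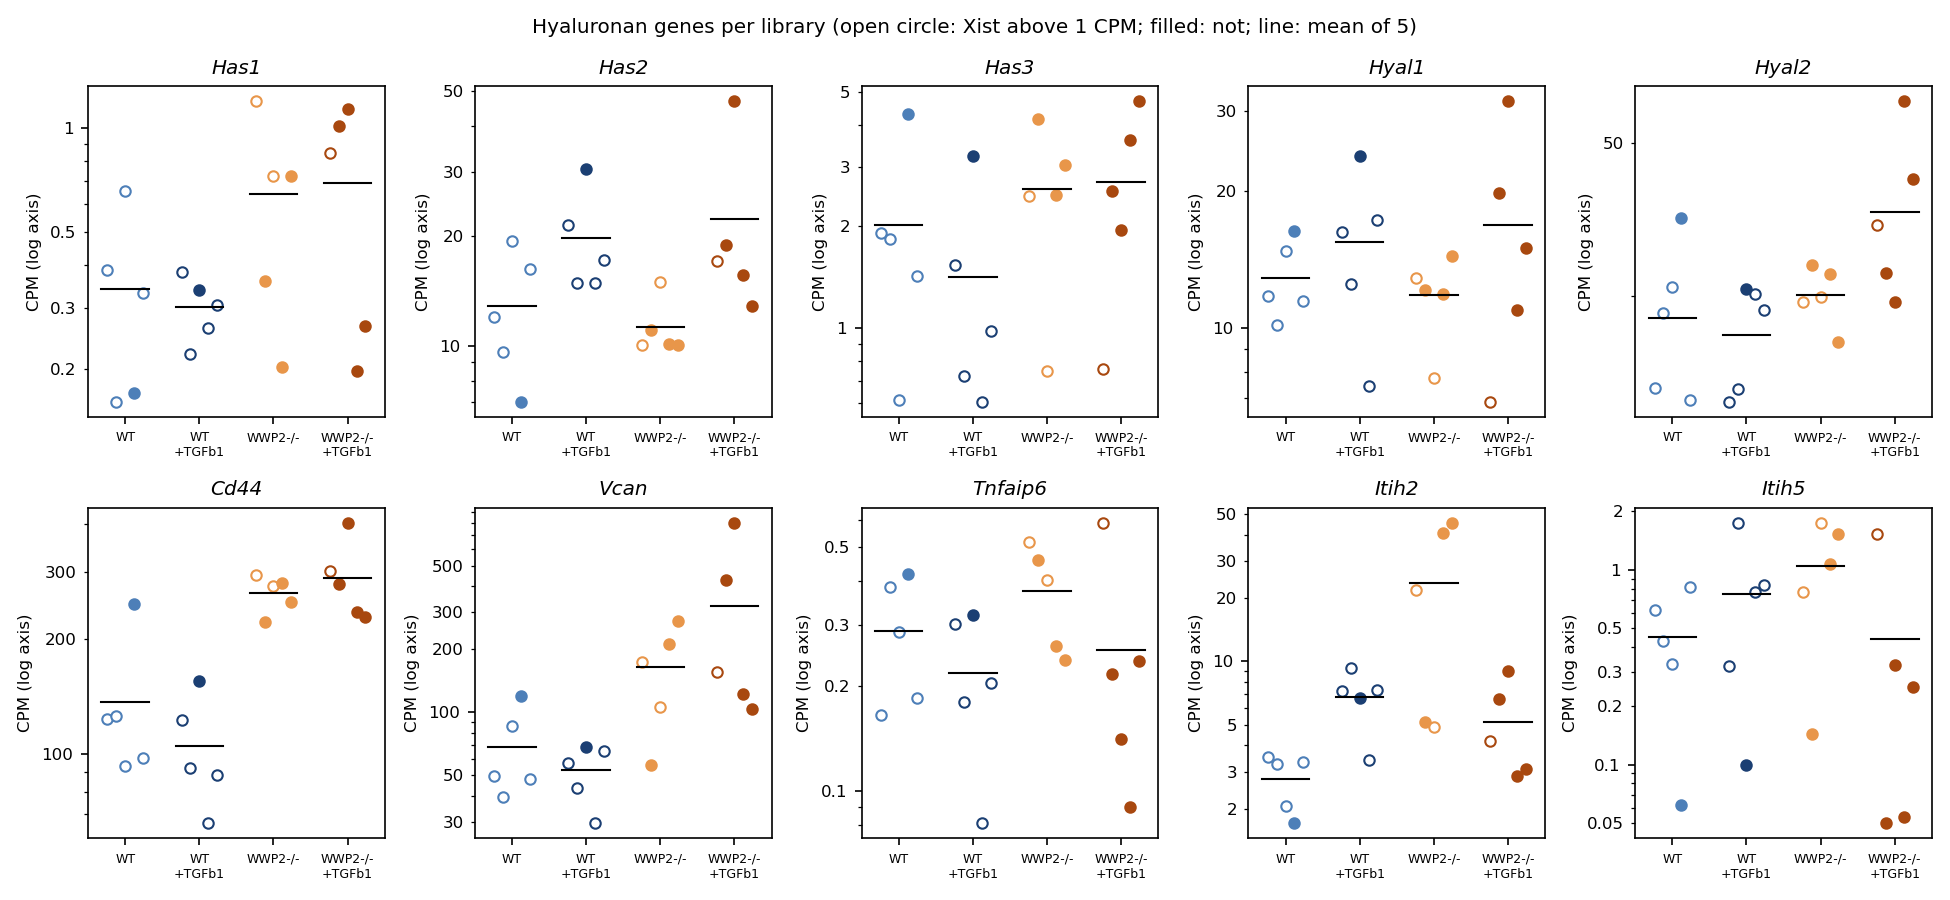
CPM of each member in every library (log axes), by group, with replicates 1 to 5 from left to right, open circles for libraries with Xist above 1 CPM and a line at the mean of 5 libraries. Cd44 and Vcan of the TGFβ1-treated WWP2-/- libraries lie above all treated WT libraries, and untreated WT replicate 4, a filled circle, reaches 247 CPM for Cd44.

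Itih2 encodes a heavy chain of inter-alpha-trypsin inhibitor. It was at 3.53, 3.26, 2.07, 1.71 and 3.34 CPM in WT replicates 1 to 5 and at 21.7, 5.17, 4.87, 40.9 and 45.6 CPM in WWP2-/- replicates 1 to 5. The genotypes did not overlap, and WWP2-/- replicates 1, 4 and 5 stood apart from replicates 2 and 3. The log2 fold change was 3.09 ± 0.56, 8.50-fold (adjusted p = 0.0214), and Itih2 was the 1 of 10 members called, against 0.725% of all genes. The median of the members was 0.65 against 0.08 over all genes.

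The Itih2 call held in 3 of the 10 fits that left out 1 library, where the log2 fold change stayed between 2.68 and 3.33. It was lost without WT replicates 1, 2, 3 or 5 and without WWP2-/- replicates 1, 4 or 5, at adjusted p between 0.0525 and 0.0904. It was lost as well in a fit of only the 2 groups (0.100), with Xist as a covariate (0.0588) and without the 5 libraries with both Xist and Y-linked transcripts (0.9996). That last fit left out 3 untreated WT libraries and 1 untreated WWP2-/- library. Over all genes it called 1, against 148 with all libraries. The log2 fold change of Itih2 stayed between 2.68 and 3.68 in all 19 alternative fits. In libraries with Xist, untreated Itih2 was between 2.07 and 3.53 CPM in 4 WT libraries and at 4.87 and 21.7 CPM in 2 WWP2-/- libraries.

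With TGFβ1, Itih2 was at 7.28, 9.34, 6.74, 3.41 and 7.33 CPM in WT and at 4.21, 6.65, 9.02, 2.88 and 3.09 CPM in WWP2-/- replicates 1 to 5, and the genotypes overlapped (log2 fold change -0.40, interval -1.50 to 0.70). In WT cells 4 of 5 treated libraries lay above every untreated one, with a log2 fold change of 1.29 ± 0.53, whereas in WWP2-/- cells 3 of 5 treated libraries lay below every untreated one, with -2.19 ± 0.54. Neither passed, with adjusted p of 0.657 and 0.603, and without untreated WWP2-/- replicate 3 the difference in WWP2-/- cells was -2.45 and passed (adjusted p = 0.0475). The interaction was -3.49 ± 0.76, with an unadjusted p of 0.000213 and an adjusted p of 0.511, and DESeq2's Wald test gave 0.0103 for it.

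Itih5, a related heavy-chain gene, and Tnfaip6, which encodes the enzyme that transfers heavy chains onto hyaluronan, were near the lower end of what these libraries measure. Itih5 was between 0.0499 and 1.75 CPM, with 3 to 103 counts, and Tnfaip6 between 0.0808 and 0.590 CPM, with 4 to 40 counts. Neither differed between genotypes past the threshold: with TGFβ1 the log2 fold changes were -0.77 (interval -2.59 to 1.06) and 0.23 (interval -0.74 to 1.20), and untreated they were 1.21 (interval -0.61 to 3.04) and 0.38 (interval -0.56 to 1.31). In libraries without Xist, Itih5 was at 0.0621 and 0.0998 CPM in 2 WT libraries, against 0.323 to 1.74 CPM in the 8 with Xist.

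**Figure D3:**
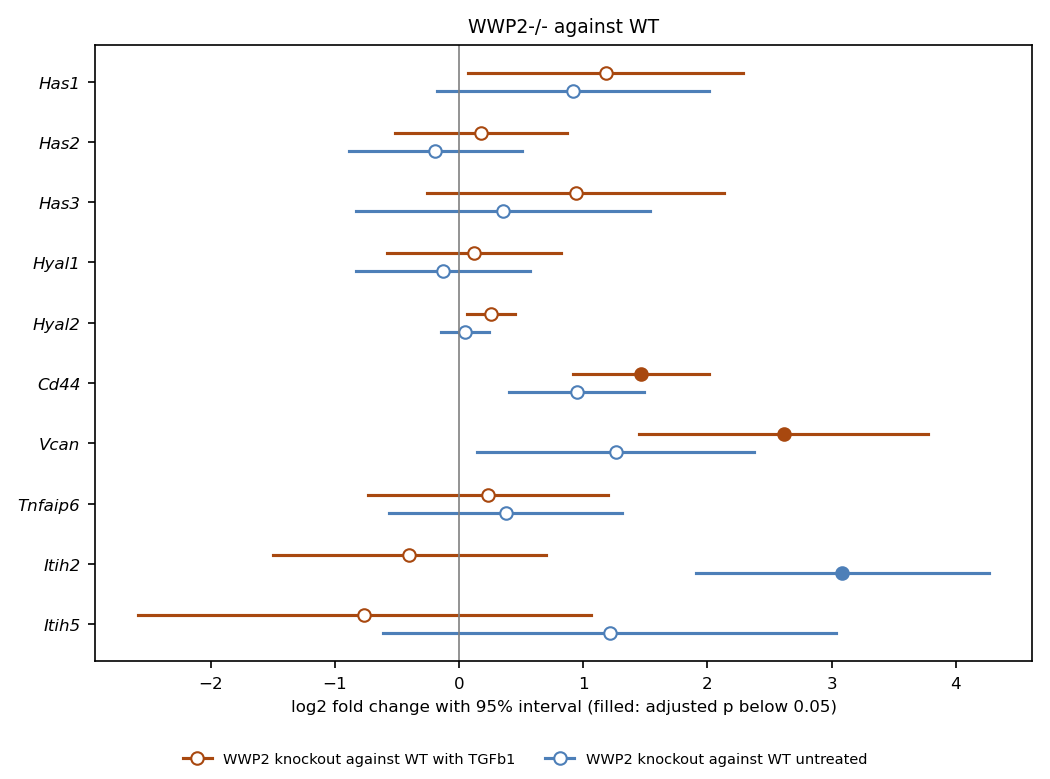
Log2 fold change of each member between WWP2-/- and WT with its 95% interval, with TGFβ1 (brown) and untreated (blue), filled where the adjusted p is below 0.05. Cd44 and Vcan are filled with TGFβ1, at 1.46 and 2.61, and Itih2 untreated, at 3.09.

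For TGFβ1 against untreated, no member and 0% of all genes were called in WT, in WWP2-/- or for the interaction with edgeR's quasi-likelihood test. At an unadjusted p below 0.05 there were 1, 2 and 1 members and 1397, 713 and 1424 genes. DESeq2's Wald test called 0, 1 and 1 members, the latter both Itih2, and 27, 49 and 10 genes. Among the 10 members, 4 had positive log2 fold changes in WT and 7 in WWP2-/- cells, with medians of -0.10 and 0.12 against 0.02 and 0.00102 over all genes. The summed levels of 7 genes that TGFβ1 is known to raise overlapped between treated and untreated libraries in both genotypes, at 1683 to 3688 CPM in WT, 1558 to 6804 CPM in TGFβ1-treated WT, 1716 to 5620 CPM in WWP2-/- and 1850 to 9439 CPM in TGFβ1-treated WWP2-/- cells. The sum of 5 myofibroblast markers did not overlap in WT, at 1600 to 2211 CPM untreated and 2291 to 3650 CPM with TGFβ1. Acta2, 1 of the 5, rose from 1016 to 1305 CPM untreated to 1432 to 2020 CPM treated in WT libraries. In WWP2-/- libraries the sum of the 5 overlapped, at 352 to 3663 CPM untreated and 515 to 4153 CPM with TGFβ1.

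**Figure D4:**
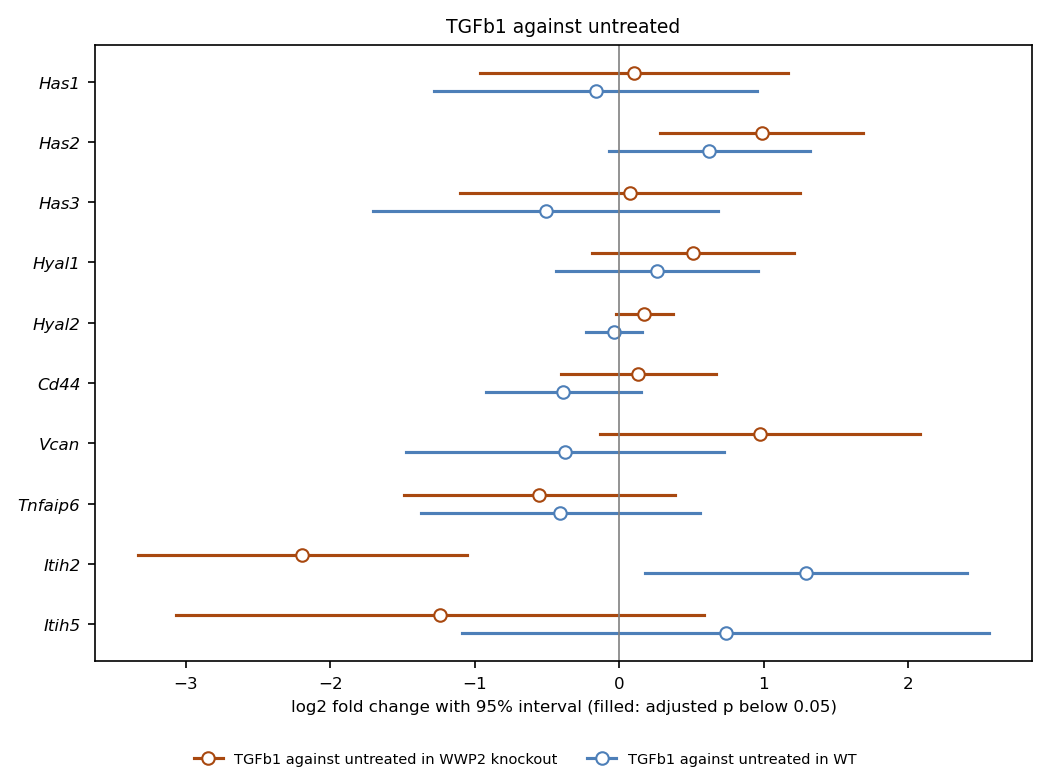
Log2 fold change of each member between TGFβ1-treated and untreated cells with its 95% interval, in WWP2-/- (brown) and WT (blue), filled where the adjusted p is below 0.05. No member is filled, and Has2 is positive in both, at 0.99 and 0.62.

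Of 37 other genes of hyaluronan metabolism, 28 were tested, and 2 were called for genotype with TGFβ1, 1 higher and 1 lower, against 6.07% of all genes. With 1 library left out the count was between 2 and 7, at 7 without TGFβ1-treated WT replicate 3 and 5 without TGFβ1-treated WWP2-/- replicate 1. It was 1 with Xist as a covariate, 0 without the 5 libraries with both kinds of transcript and 9 without the 2 low in Acta2. Over all genes the count was 1238, and with 1 library left out 453 to 2730, at 2730 without TGFβ1-treated WT replicate 3. It was 660, 2 and 3480 in those other 3 fits. None of the 28 was called in the other 4 comparisons with edgeR's quasi-likelihood test, where 5, 2, 1 and 4 had an unadjusted p below 0.05 (genotype untreated, TGFβ1 in WT, TGFβ1 in WWP2-/- and the interaction). DESeq2's Wald test called 4 of these genes with TGFβ1 and 2, 0, 1 and 0 in those 4 comparisons, with Cemip among the 2 for untreated cells (adjusted p = 0.00377). Over all genes the Wald test called 2672 with TGFβ1 and 743, 27, 49 and 10 in those 4 comparisons. Cemip, which encodes a hyaluronan-binding protein needed for hyaluronan depolymerization by fibroblasts, was at 388, 501, 18.7, 189 and 568 CPM in treated WT replicates 1 to 5 and between 9.40 and 38.3 CPM in treated WWP2-/- libraries. WT replicate 3 lay within the WWP2-/- range. Cemip fell by 3.88 on the log2 scale (SE 0.79, adjusted p = 0.0123), 14.7-fold lower in WWP2-/- cells.

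The 2 WT libraries without Xist held 16.8 and 18.7 CPM of Cemip, and the 8 with Xist between 132 and 568 CPM. In WWP2-/- libraries Cemip was between 21.7 and 40.5 CPM in 3 with Xist and between 6.36 and 38.1 CPM in 7 without. With Xist as a covariate, the log2 fold change with TGFβ1 was -2.02, with an adjusted p of 0.109. The same 2 WT libraries had the highest Cd44 of their groups.

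Gnpnat1, which makes a precursor of UDP-N-acetylglucosamine, 1 of the 2 sugars of hyaluronan, was at 39.0, 33.2, 49.3, 35.9 and 34.2 CPM in treated WT replicates 1 to 5 and between 53.1 and 65.3 CPM in treated WWP2-/- libraries. The groups did not overlap, and the log2 fold change was 0.66 ± 0.14 (adjusted p = 0.0149). Without the 5 libraries with both kinds of transcript, the adjusted p was 0.112 for Gnpnat1 and 0.100 for Cemip. By class, the 8 precursor genes had a median log2 fold change of -0.11 with TGFβ1, 6 other breakdown genes -0.06, 5 other receptors -0.37 and 9 other matrix genes 0.51, against 0.05 over all genes.

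**Figure D5:**
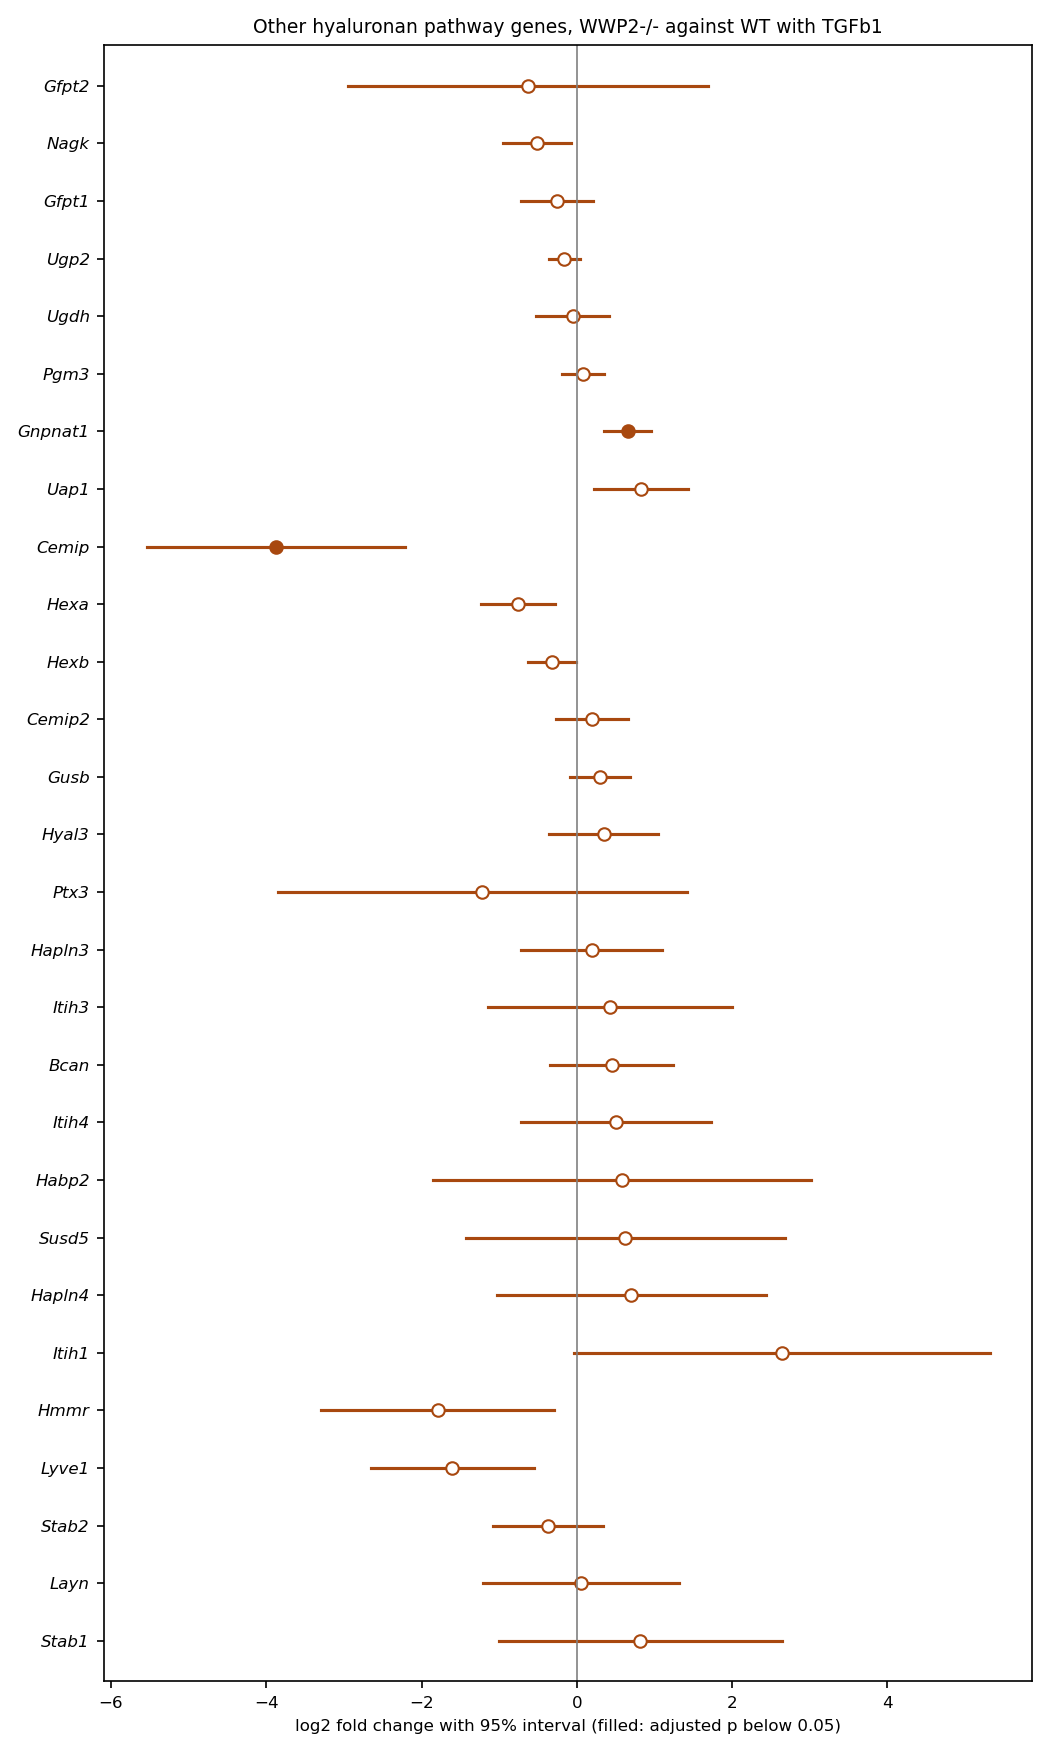
Log2 fold change between WWP2-/- and WT with TGFβ1, with its 95% interval, for the 28 tested genes of the hyaluronan pathway list, grouped by class, filled where the adjusted p is below 0.05. Cemip lies at -3.88 and Gnpnat1 at 0.66, and the other 26 are open.

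Over the 20 libraries, the tested genes most like each member with a mean of at least 1 CPM were found by Pearson's correlation of log2 CPM, as a description in libraries that share genotype and Xist differences. They were Serinc3 and Fam161a for Has2 (r = 0.872 and 0.847), Patj and Trpm6 for Has3 (both 0.979), Ppfibp1 and Eda2r for Hyal1 (0.939 and 0.918), and Thoc1 and Jagn1 for Hyal2 (0.892 and 0.890). For Cd44 they were Nlk and Inava (0.968 and 0.966), for Vcan Otud6b and Csnk2a1 (0.968 and 0.923), and for Itih2 Reps1 and Rad54b (0.916 and 0.895).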

How the data were processed

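Poly-A RNA of 20 cultures was sequenced as paired-end reads, which the authors aligned to GRCm38 with STAR and counted on exons with featureCounts; the deposited values are raw counts per gene, without normalization, for 51826 genes. Tool versions and the strand setting are not given in the sources used here. All 20 columns were matched to samples by their labels, and no libraries were identical. Symbols, positions and exon lengths came from GENCODE M21 on GRCm38 (51633 genes named), and promoter sequences from RefSeq on GRCm38.p6, which had entries for Has1, Hyal1, Hyal2, Cd44, Vcan, Tnfaip6, Itih2 and Itih5.

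The 20407 genes that reached 5 counts in 5 or more libraries were scaled by TMM factors (0.883 to 1.13) and fitted over all 20 libraries with 4 groups in edgeR 4.0.16 (R 4.3.3) by glmQLFit and glmQLFTest. P-values are two-sided, adjusted by the Benjamini-Hochberg method over all genes tested, with a threshold of 0.05. Standard errors are the log2 fold change divided by the square root of F, and intervals use the test's degrees of freedom. CPM was first computed from plain totals and then on the TMM scale after values had been seen. RPKM divides CPM by exon length. On simulated data, where 200 genes were given a log2 change of 2, the fit found 118, all in the right direction, with 4 false calls among 20030 genes tested.

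The 10 members and all lists were chosen with earlier results of these data known. Of the pathway list, genes with an adjusted p below 0.05 are named, and the most alike genes are the 2 with the highest correlation (log2 CPM, prior count 2). Fibroblast, myofibroblast, macrophage, tubular, endothelial and mesothelial marker lists were summed per library and not tested. Alternatives were DESeq2 1.42.0 size factors and Wald test, no filter, at least 10 counts in every library, only the groups compared, the replicate number as a block (also within genotype), Xist as a covariate (log2 of CPM plus 1) and each library left out. Leaving out 5 libraries with both Xist and Y-linked transcripts, or 2 low in Acta2, was added after seeing the data.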

Additional observations from a re-analysis of the deposited data

Results flagged for a closer look

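Among 40 groups of 5 libraries (10 members in 4 groups), 4 libraries lay further from the rest than Dixon's 95% limit allows, and chance flags about 1 in 20 groups. Has2 was at 14.96 CPM in WWP2-/- replicate 3, against 10.04 to 11.04 CPM in the other 4, and at 46.8 CPM in TGFβ1-treated WWP2-/- replicate 3, against 12.9 to 18.9 CPM. Cd44 was at 247 CPM in WT replicate 4, against 93.1 to 126 CPM, and this is the untreated WT library without Xist. That library also had the highest summed macrophage markers of its group, at 4002 CPM, and the lowest summed fibroblast markers, at 4648 CPM. Across the 20 libraries, log2 CPM of Cd44 and the macrophage sums had r = 0.29. Itih5 was at 1.53 CPM in TGFβ1-treated WWP2-/- replicate 1, against 0.0499 to 0.323 CPM, and this library has Xist and is low in Acta2. The part of Xist, of Acta2 and of these cell types in these values was not tested.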

How the results depend on the processing

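Of the 10 members, the fits called 2 with TGFβ1 and 1 untreated for genotype, and 0 for TGFβ1 in WT, for TGFβ1 in WWP2-/- and for the interaction. DESeq2 size factors, no filter, 10 counts in every library and the fit without the 2 libraries low in Acta2 gave these same numbers. With Xist as a covariate 1 and 0 were called for genotype, and without the 5 libraries with both Xist and Y-linked transcripts 0 and 0. The untreated count was 0 in a fit of only the groups compared, and 2 by the Wald test, which also gave 3 with TGFβ1, 1 for TGFβ1 in WWP2-/- and 1 for the interaction. With 1 library left out, the counts were 2 to 2, 0 to 2 (2 without WT replicate 4), 0 to 0, 0 to 1 (1 without WWP2-/- replicate 3) and 0 to 0. Over all genes, the count with TGFβ1 (1238) was 2672 by the Wald test, 790 with no filter, 534 in a fit of only the groups, 660 with Xist, 2 without the 5 libraries and 3480 without the 2, and 453 (without treated WT replicate 2) to 2730 (without treated WT replicate 3) with 1 library left out. The untreated count (148) was 743, 113, 1, 87, 1 and 271 in that order, and 1 to 743 (without WT replicate 4).

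The replicate block left 2 calls with TGFβ1 and 0 untreated (Itih2 adjusted p = 0.105), and 670 and 1 genes overall; nested in genotype it was run only for the TGFβ1 comparisons and the interaction, where it called 0. Same-numbered libraries did not all deviate together (correlations of -0.522 to 0.443), and WT replicates 3 and 4 held Xist in only 1 of 2 treatments, so the numbers pair no samples.

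The direction of the log2 fold changes turned in 34 of 1136 refits, none of them beyond the threshold. Fitted with Xist, genotype with TGFβ1 was -0.068 for Has3, -0.37 for Hyal1 and 0.28 for Itih5; Has3 was -0.35 untreated and -0.21 for TGFβ1 in WWP2-/-. Without the 5 libraries, Hyal2 was -0.088 and Tnfaip6 -0.059 untreated, Hyal1 -0.028 for TGFβ1 in WT and Tnfaip6 0.44 for the interaction. Without the 2 low in Acta2, Tnfaip6 with TGFβ1 was -0.34. With 1 library left out, genotype with TGFβ1 ran from -0.31 to 0.37 for Has2, -0.25 to 0.32 for Hyal1 and -0.35 to 0.44 for Tnfaip6, and untreated from -0.0087 to 0.069 for Hyal2. TGFβ1 in WT ran from -0.35 to 0.20 for Has1 and -0.076 to 0.013 for Hyal2, and in WWP2-/- from -0.13 to 0.47 for Has1, -0.21 to 0.32 for Has3 and -0.0080 to 0.22 for Cd44. The interaction ran from -0.082 to 0.65 for Has1, -0.084 to 0.60 for Has2, -0.10 to 0.47 for Hyal1 and -0.70 to 0.086 for Tnfaip6. The cause was not tested. Has1, Tnfaip6 and Itih5 rest on few counts.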
